A study of Mus musculus with 9 samples.

Results

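The genes described here are 10 enzymes and helper proteins that make prostaglandins, thromboxane and leukotrienes from arachidonic acid. They were chosen by name, by what they do, with earlier results of these data known, and all 10 are among the 24318 genes listed in the deposited tables. They are Pla2g4a, Ptgs1, Ptgs2, Ptges, Ptges2, Ptges3, Hpgds, Tbxas1, Alox5 and Alox5ap. The study asked how a mouse cell line responded to extracellular vesicles taken from brain (BDEV), small particles that cells shed and other cells can take up. It holds 9 polyA-selected RNA-seq libraries in 3 groups of 3. The Vehicle group received no vesicles (library name CON). The CON-BDEV group received control vesicles (library name EV Saline), and the SE-BDEV group received vesicles from status epilepticus, a state of prolonged seizures (library name EV Pilo). All groups are of 1 cell line, and the labels name no other treatment or genetic change. Vesicle dose, exposure time, and the age and sex of the animals that gave the vesicles are not given in the sources used here. The labels do not say whether replicates were separate cultures, so the p-values rest on library-to-library spread that may be only technical.

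The series design text calls the cells BV2, an immortalised mouse microglial line, and the cell line label calls them N2a, a mouse neuroblastoma line. Of 15 microglial and macrophage markers 13 reached a mean of 1 FPKM (FPKM is the number of fragments relative to transcript length and library size), among them Cd68 at 740.2 FPKM, Tyrobp at 712 FPKM and Csf1r at 82.6 FPKM. Aif1 (6.97 FPKM) and Tmem119 (5.16 FPKM) were low, and Cx3cr1 (0.122 FPKM) and P2ry12 (0.0142 FPKM) did not reach 1 FPKM. Of 12 neuroblastoma markers 1 reached 1 FPKM (Elavl4, 3.92 FPKM), and Th and Dbh were listed at 0 in every library. Summed microglial markers ran from 3081 to 3184 FPKM in Vehicle, 3133 to 3248 in CON-BDEV and 3195 to 3351 in SE-BDEV. Mast cells, platelets and neutrophils are other rich sources of these enzymes: 2 of their 11 markers reached 1 FPKM (Pf4 at 127 FPKM and S100a8 at 7.41 FPKM), and Cpa3, Mcpt4, Tpsb2 and Kit were at 0. Itga2b (0.145 FPKM), Gp1bb (0.00836 FPKM), S100a9 (0.0539 FPKM), Elane (0.426 FPKM) and Mpo (0.00159 FPKM) were under 1 FPKM. The sum of the 11 markers, mostly Pf4, was 120 to 134 FPKM in Vehicle, 140.0 to 152 in CON-BDEV and 128 to 138 in SE-BDEV. The part of that sum in the results below was not tested. Neuronal markers summed to 13.3 to 14.4, 14.8 to 16.6 and 16.4 to 16.6 FPKM in the same order, nearly all of it Camk2a, with Gad1 at 0. Oligodendrocyte markers summed to 13.9 to 14.1 FPKM in Vehicle, 10.8 to 13.4 in CON-BDEV and 11.8 to 12.5 in SE-BDEV, mostly Cnp, with 2 of 7 at 1 FPKM or more and Mog and Mag at 0. Neuroblastoma markers summed to 3.18 to 3.75, 3.71 to 5.06 and 4.08 to 4.49 FPKM. The part of these lists in the results was not tested either. Estimated depth was about 29000000 fragments in CON-BDEV replicate 2, the shallowest library, to about 33600000 in Vehicle replicate 2.

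Prostanoid synthesis starts when cytosolic phospholipase A2, the product of Pla2g4a, cuts arachidonic acid out of membrane phospholipids. The cyclooxygenases COX-1 (Ptgs1, present in most cells at rest) and COX-2 (Ptgs2, the inducible form and the target of selective anti-inflammatory drugs) turn it into prostaglandin H2, from which terminal synthases make prostaglandin E2, prostaglandin D2 and thromboxane A2. In the leukotriene branch, 5-lipoxygenase (Alox5) receives arachidonic acid with the help of its activating protein (Alox5ap). In the brain, microglia are a known source of prostaglandins during inflammation, and COX-2 induction after seizures is well described.

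The promoters of 3 members are shown because 2 of them, Ptgs2 and Pla2g4a, lie close together on chromosome 1 and were higher after both vesicle preparations, whereas Ptgs1, the other cyclooxygenase, was not called. Each line holds the 250 bases before and 50 bases after the annotated start, 5′ to 3′ on the strand of the gene, from RefSeq on GRCm38.p6. Where a gene had several annotated starts, the outermost was taken. Ptgs2 lies on the plus strand (chr1:150099781-150100080), Pla2g4a on the minus strand (chr1:149961241-149961540) and Ptgs1 on the plus strand (chr2:36230176-36230475). Capitals mark a match to a searched motif.
Ptgs2 promoter: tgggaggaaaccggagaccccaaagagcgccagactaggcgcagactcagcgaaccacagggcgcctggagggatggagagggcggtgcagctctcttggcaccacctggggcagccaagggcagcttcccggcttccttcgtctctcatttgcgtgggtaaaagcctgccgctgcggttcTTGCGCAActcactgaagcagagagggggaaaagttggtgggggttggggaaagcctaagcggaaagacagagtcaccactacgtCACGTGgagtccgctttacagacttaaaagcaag
Pla2g4a promoter: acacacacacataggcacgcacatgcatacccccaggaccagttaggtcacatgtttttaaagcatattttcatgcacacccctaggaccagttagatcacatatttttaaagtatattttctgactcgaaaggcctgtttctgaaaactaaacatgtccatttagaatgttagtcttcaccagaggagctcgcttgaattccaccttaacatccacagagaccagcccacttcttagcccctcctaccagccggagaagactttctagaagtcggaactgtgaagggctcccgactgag
Ptgs1 promoter: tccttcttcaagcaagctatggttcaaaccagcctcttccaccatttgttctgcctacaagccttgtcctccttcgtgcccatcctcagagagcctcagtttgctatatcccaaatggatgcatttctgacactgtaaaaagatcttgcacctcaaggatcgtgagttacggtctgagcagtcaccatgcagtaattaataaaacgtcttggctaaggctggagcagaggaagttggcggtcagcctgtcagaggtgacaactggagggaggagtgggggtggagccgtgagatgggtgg

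Both strands were searched for 7 motifs. The CRE was read as TGACGTCA and the AP-1 site as TGACTCA. The core of the antioxidant response element was TGACNNNGC, and the C/EBP site was TTGCGCAA. The TATA box was searched for with the letters TATAAA. For the E-box, bound by several transcription factor families, the letters were CACGTG. The NF-kB consensus was the remaining motif. The Ptgs2 promoter held the C/EBP letters with the first base at -69 from the start and the E-box letters at 16. Both positions count from the start taken here, and distances from any other start would differ. Which start these cells use was not tested. The C/EBP letters are present in 0.183% of 32851 RefSeq mouse promoters of this length and the E-box letters in 7.15%. The Pla2g4a and Ptgs1 windows held none of the 7 motifs. Of the 9 members matched in the RefSeq promoter table (all but Alox5ap), Ptges2 also held the E-box letters, Ptges3 the antioxidant response element core (12.4% of promoters) and the NF-kB consensus (8.46%), and Tbxas1 the TATA letters (13.6%). No window of these members held CRE (1.79%) or AP-1 (5.2%) letters. Sites outside the windows or with other letters were not searched for. These matches describe the letters of the windows and are not measured binding sites.

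The members differed widely in level. Averaged over the 9 libraries, Ptges3 (140.2 FPKM), Alox5ap (114 FPKM) and Pla2g4a (71.9 FPKM) were highest. Ptgs1 (29.3 FPKM), Hpgds (23.8 FPKM) and Ptges2 (20.4 FPKM) followed. Ptgs2 (3.15 FPKM) and Ptges (1.01 FPKM) were low, and Tbxas1 (0.107 FPKM) and Alox5 (0.0187 FPKM) rested on a few fragments per library. In this order the ranges over libraries overlapped for the neighbours Ptges3 and Alox5ap, Ptgs1 and Hpgds, Hpgds and Ptges2, and Tbxas1 and Alox5. Even so, each pair kept its order within 9 of 9 libraries, except Tbxas1 above Alox5 in 8 of 9. The activating protein Alox5ap was thus among the most abundant members while Alox5, the enzyme it serves, was the least abundant.

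**Figure D1:**
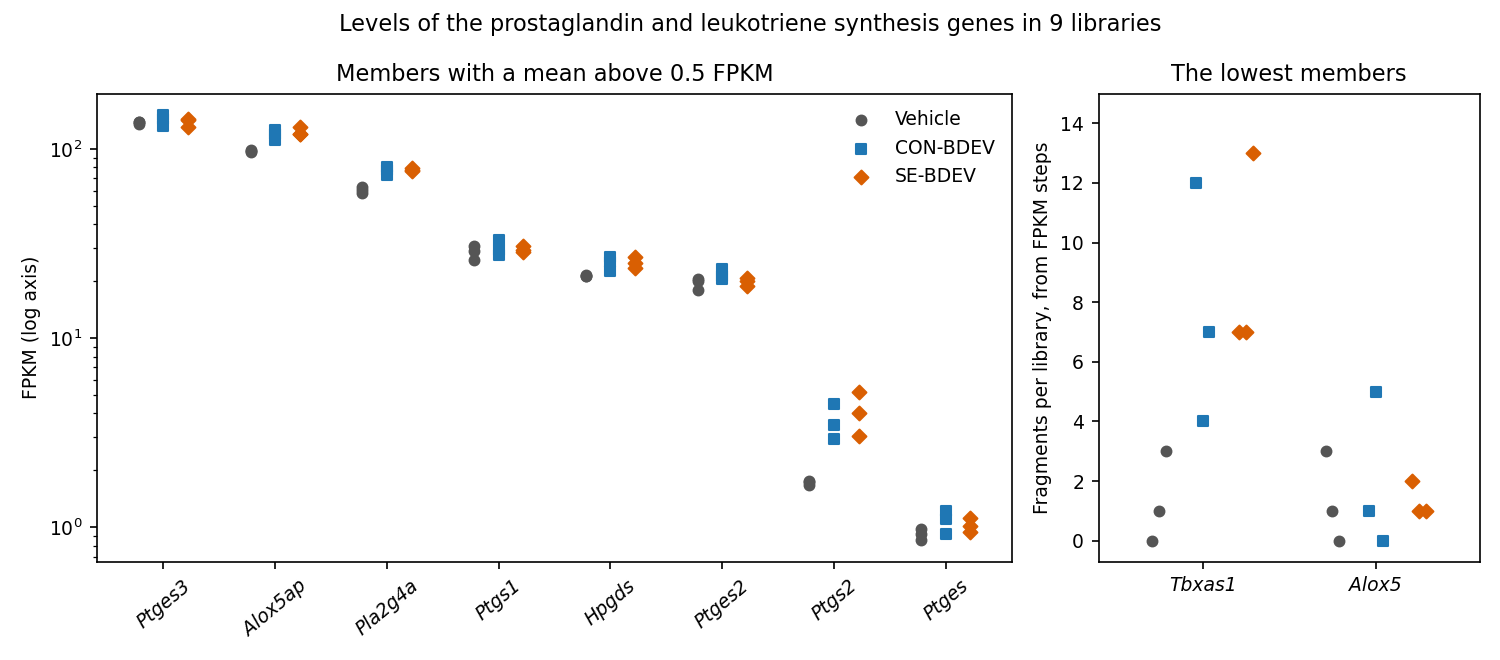
Levels of the 10 members in each of the 9 libraries, 8 of them in FPKM on a log axis with members ordered by their mean and 1 point per library; Tbxas1 and Alox5 are shown apart, as fragments per library on a linear axis. Ptges3, Alox5ap and Pla2g4a lie at or above 58.5 FPKM in every library, while Tbxas1 rests on 0 to 13 fragments and Alox5 on 0 to 5.

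After either vesicle preparation, 3 members were higher than in Vehicle: Pla2g4a, which releases arachidonic acid, Ptgs2 (COX-2) and Alox5ap, the helper of 5-lipoxygenase. Ptgs2 had the largest change of the members tested, 2.10 times the Vehicle mean with CON-BDEV and 2.37 times with SE-BDEV. In CON-BDEV, 3 of the 8 members that passed the filter of a mean of 1 FPKM rose and 0 fell (limma, adjusted p under 0.05), where 3.81% of 10535 genes rose and 5.67% were called in either direction. In SE-BDEV, 4 of 7 rose and 0 fell, where 6.76% of 10535 genes rose and 11.9% were called. Quantile scaling moved the split of all calls with CON-BDEV from 401 higher and 196 lower to 301 and 249, and left the member counts at 3 and 4. The median log2 fold change of the members kept was 0.18 with CON-BDEV beside 0.01 over all genes, and 0.21 with SE-BDEV beside -0.00. Every vesicle library was above every Vehicle library in 5 of the 8 members kept with CON-BDEV (6 of all 10) and in 4 of the 7 with SE-BDEV (5 of all 10); this was so of 16.6% and 16.5% of genes. Both comparisons use the same 3 Vehicle libraries, so they are not independent of each other. In bulk RNA, more cells that express a gene and more RNA per cell cannot be told apart.

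Pla2g4a encodes the phospholipase that supplies the pathway; its gene spans chromosome 1, 151676749 to 151808420 (mm9, the build of the authors' files). Its levels were 61.1, 58.5 and 62.9 FPKM in Vehicle, 77.6, 72.6 and 80.7 FPKM in CON-BDEV, and 76.6, 77.5 and 79.2 FPKM in SE-BDEV. All 6 vesicle libraries lay above all 3 Vehicle libraries. The log2 fold change on the log2(FPKM + 1) scale was 0.33 with CON-BDEV (SE 0.0501, 95% interval 0.22 to 0.45, limma adjusted p = 0.0108) and 0.35 with SE-BDEV (SE 0.0389, 0.26 to 0.44, adjusted p = 0.000787). The CON-BDEV call was lost without Vehicle replicate 1 (adjusted p = 0.0506) or Vehicle replicate 2 (0.0526), and the SE-BDEV call held in 14 of 14 alternatives.

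Ptgs2, the inducible cyclooxygenase, lies 138.8 kb from Pla2g4a, at chromosome 1, 151947254 to 151955142 (mm9). Its levels were 1.74, 1.76 and 1.68 FPKM in Vehicle, 2.93, 3.46 and 4.48 FPKM in CON-BDEV, and 5.20, 4.03 and 3.04 FPKM in SE-BDEV. The 3 Vehicle libraries were close together and all vesicle libraries lay above them, but the vesicle libraries spread widely and the 2 vesicle groups overlapped. Group means were 1.72 ± 0.0385 FPKM in Vehicle, 3.62 ± 0.787 in CON-BDEV and 4.09 ± 1.08 in SE-BDEV (SD, n = 3 each). The log2 fold change was 0.75 with CON-BDEV (SE 0.113, 95% interval 0.49 to 1.00, limma adjusted p = 0.0108) and 0.88 with SE-BDEV (SE 0.131, 0.59 to 1.18, adjusted p = 0.00374). The pseudocount of 1 FPKM lowers these folds for a gene at this level: the authors' deposited table gives log2 fold changes of 1.07 and 1.25. About 256 fragments stand behind the value in Vehicle replicate 1. The CON-BDEV call was lost without Vehicle replicate 2 (adjusted p = 0.0507), without Vehicle replicate 3 (0.0524) and with no filter on low values (0.0566), and the SE-BDEV call held in 13 of 13 alternatives.

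A number of unstated meaning opens each library's code. It is 1 for Vehicle replicates 1 and 2, CON-BDEV replicate 1 and SE-BDEV replicate 1, and 2 for the others. Within number 1 the log2 difference of Ptgs2 from Vehicle was 0.52 for CON-BDEV and 1.17 for SE-BDEV, and within number 2 it was 0.88 and 0.75. Pla2g4a gave 0.37 and 0.35 within number 1 and 0.28 and 0.31 within number 2, and Alox5ap 0.29 and 0.29, then 0.29 and 0.38. Hpgds gave 0.08 and 0.31 within number 1 and 0.26 and 0.16 within number 2. Each value compares 1 vesicle library with 2 Vehicle libraries in number 1 and 2 with 1 in number 2, and has no test. All 4 genes were thus above Vehicle under each number, while the order of the vesicle groups in Ptgs2, Hpgds and Pla2g4a differed between the numbers.

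Ptgs1, the cyclooxygenase present at rest, had no call. Its levels were 25.8, 28.8 and 30.7 FPKM in Vehicle, 33.0, 27.4 and 29.2 FPKM in CON-BDEV, and 29.4, 28.4 and 30.9 FPKM in SE-BDEV, and the 3 groups overlapped. The log2 fold change was 0.07 with CON-BDEV (95% interval -0.11 to 0.25, limma adjusted p = 0.650) and 0.06 with SE-BDEV (-0.08 to 0.20, adjusted p = 0.595). As a description with no test, Ptgs2 stood at 5.49% to 6.72% of the Ptgs1 level in Vehicle, 8.88% to 15.4% in CON-BDEV and 9.85% to 17.7% in SE-BDEV. COX-1 mRNA was thus the more abundant of the pair in every library, those with vesicles included.

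**Figure D2:**
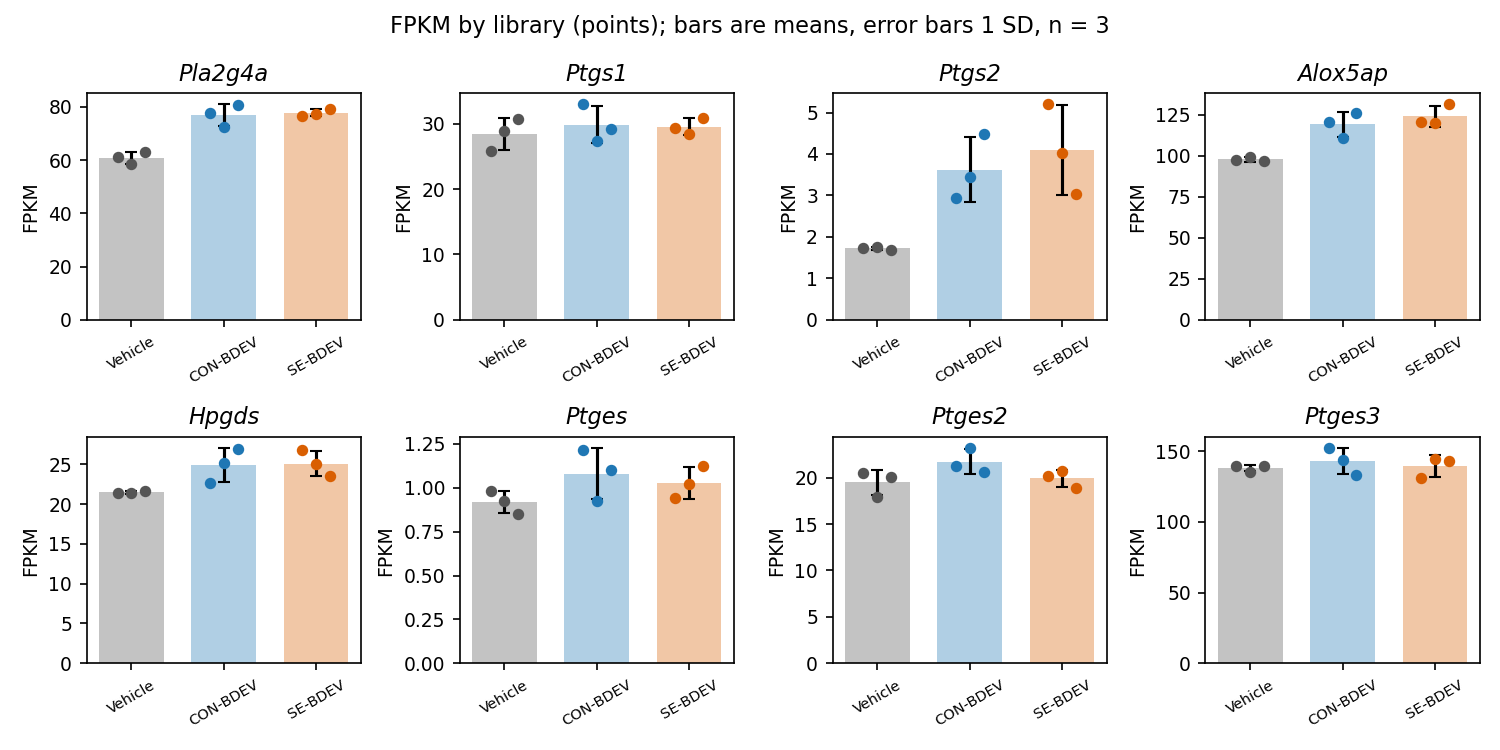
FPKM of the 8 more abundant members in the 3 Vehicle, 3 CON-BDEV and 3 SE-BDEV libraries, 1 panel per gene with its own linear axis, points for libraries and bars for group means ± SD. For Ptgs2, Pla2g4a, Alox5ap and Hpgds the 6 vesicle libraries all lie above the 3 Vehicle libraries, and for Ptgs1 and Ptges3 the groups overlap.

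None of the 3 prostaglandin E synthases had a call. Ptges, the inducible microsomal enzyme that is often coupled to COX-2, was near the filter at 0.980, 0.925 and 0.854 FPKM in Vehicle, 1.22, 0.925 and 1.10 FPKM in CON-BDEV, and 0.943, 1.02 and 1.13 FPKM in SE-BDEV. About 118 fragments stand behind its value in Vehicle replicate 1. The CON-BDEV group overlapped Vehicle at 0.925 FPKM and SE-BDEV overlapped it at 0.943 FPKM. Its log2 fold change with CON-BDEV was 0.11 (95% interval -0.09 to 0.32, limma adjusted p = 0.472), and with SE-BDEV its mean was under the filter and it was not tested.

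Ptges2, a second membrane-associated prostaglandin E synthase, measured 20.5, 18.0 and 20.1 FPKM in Vehicle, 21.3, 23.2 and 20.7 FPKM in CON-BDEV, and 20.1, 20.8 and 18.9 FPKM in SE-BDEV. The CON-BDEV libraries lay above Vehicle without a call (log2 fold change 0.15, 95% interval 0.00 to 0.29, limma adjusted p = 0.204), and SE-BDEV overlapped it (0.03, -0.10 to 0.16, adjusted p = 0.773). Ptges3, the cytosolic synthase also known as the HSP90 co-chaperone p23, was the most abundant member, at 135 to 139 FPKM in Vehicle, 133 to 152 in CON-BDEV and 131 to 145 in SE-BDEV. Its groups overlapped, with log2 fold changes of 0.05 (-0.07 to 0.16, adjusted p = 0.601) and 0.01 (-0.08 to 0.11, adjusted p = 0.866). A related pseudogene, Ptges3-ps, is annotated, and reads could be shared with it.

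Hpgds, the hematopoietic prostaglandin D synthase known in microglia and mast cells, was 21.4, 21.4 and 21.6 FPKM in Vehicle, 22.7, 25.2 and 26.9 FPKM in CON-BDEV, and 26.8, 25.1 and 23.5 FPKM in SE-BDEV. Vehicle was tight, and all 6 vesicle libraries lay above it. With SE-BDEV the gene rose by 0.21 on the log2 scale (SE 0.0498, 95% interval 0.10 to 0.33, limma adjusted p = 0.0245), and with CON-BDEV its log2 fold change was 0.20 (0.06 to 0.34, adjusted p = 0.0895). The SE-BDEV call held in 7 of 14 alternatives. It was lost without SE-BDEV replicate 1 (adjusted p = 0.0559) or replicate 2 (0.0615) and without Vehicle replicate 1 (0.0891), 2 (0.0824) or 3 (0.0676), also with the low-value filter off (0.0627) and when all 9 libraries were fitted together (0.0644). Without CON-BDEV replicate 1 the CON-BDEV difference passed, with an adjusted p of 0.0133. Within each vesicle group Hpgds took the same order as Ptgs2. Both were lowest in CON-BDEV replicate 1 and SE-BDEV replicate 3 of their groups and highest in CON-BDEV replicate 3 and SE-BDEV replicate 1. Over the 6 vesicle libraries together the orders of the 2 genes differed. This is a description noticed after the values were seen.

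Tbxas1, thromboxane A synthase, was close to the limit of detection. Its values were 0, 0.0165 and 0.0537 FPKM in Vehicle, 0.215, 0.0768 and 0.120 FPKM in CON-BDEV, and 0.127, 0.132 and 0.222 FPKM in SE-BDEV. Read as whole fragments from the steps of its values, within 10% of a step, these were 0, 1 and 3 fragments in Vehicle, 12, 4 and 7 in CON-BDEV, and 7, 7 and 13 in SE-BDEV. All vesicle libraries lay above all Vehicle libraries, on totals of 4, 23 and 27 fragments. The astrocyte marker Gfap, also at trace level, was likewise above 0 in every vesicle library and at 0 in every Vehicle library. Where the Tbxas1 fragments came from was not tested. Per depth the ratio to Vehicle was 6.06 with CON-BDEV (exact 95% interval 2.07 to 24.1) and 7.09 with SE-BDEV (2.47 to 27.9), and these intervals cover counting error only. The gene was under the filter. With no filter, limma gave log2 differences of 0.15 and 0.18 with adjusted p-values of 0.173 and 0.0540, so neither was a call. The pseudocount of 1 FPKM is far above these values and shrinks the differences, so that test says little about Tbxas1.

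Alox5ap, the membrane protein that presents arachidonic acid to 5-lipoxygenase, was 97.7, 99.5 and 96.7 FPKM in Vehicle, 121, 111 and 126 FPKM in CON-BDEV, and 121, 120.3 and 132 FPKM in SE-BDEV. The lowest vesicle library, CON-BDEV replicate 2, lay above the highest Vehicle library. The log2 fold change was 0.28 with CON-BDEV (SE 0.0501, 95% interval 0.17 to 0.39, limma adjusted p = 0.0174) and 0.34 with SE-BDEV (SE 0.0421, 0.24 to 0.43, adjusted p = 0.00138). The SE-BDEV call held in 14 of 14 alternatives. The CON-BDEV call was lost without CON-BDEV replicate 3 (adjusted p = 0.0609), without Vehicle replicate 1 (0.0803), 2 (0.0658) or 3 (0.0768), and with no filter on low values (0.0602).

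Alox5, the 5-lipoxygenase itself, was barely detected in any group. It was listed at 0.0336, 0.0110 and 0 FPKM in Vehicle, 0.0119, 0.0638 and 0 FPKM in CON-BDEV, and 0.0240, 0.0125 and 0.0114 FPKM in SE-BDEV. These values are 3, 1 and 0 fragments, 1, 5 and 0 fragments, and 2, 1 and 1 fragments. The groups overlapped, and the ratios to Vehicle were 1.58 with CON-BDEV (exact 95% interval 0.375 to 7.61) and 1.05 with SE-BDEV (0.196 to 5.64). A difference in Alox5 was not detectable at this depth.

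**Figure D3:**
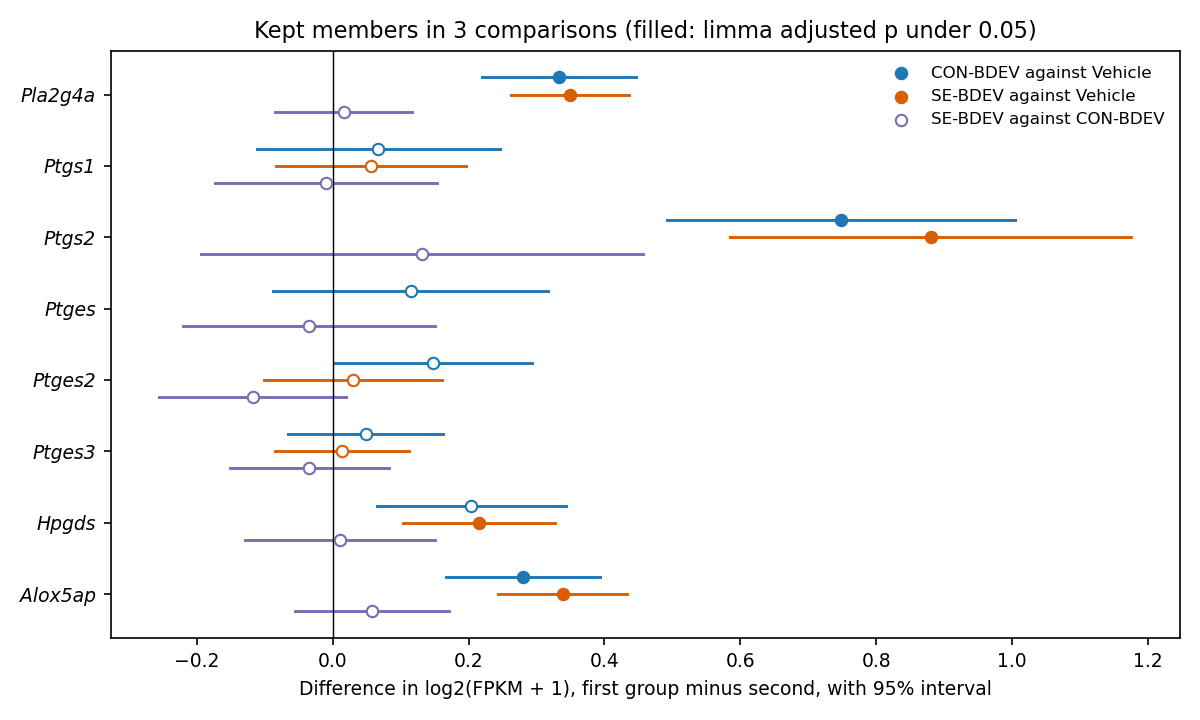
Log2 fold change of each member that passed the filter, on the log2(FPKM + 1) scale with its 95% interval from limma, for CON-BDEV against Vehicle, SE-BDEV against Vehicle and SE-BDEV against CON-BDEV. Intervals of Ptgs2, Pla2g4a, Alox5ap and Hpgds lie above 0 for both vesicle groups against Vehicle, and that of Ptges2 for CON-BDEV only. Filled points are past the threshold, and all intervals of SE-BDEV against CON-BDEV span 0.

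No member passed the test between the 2 vesicle preparations. SE-BDEV against CON-BDEV gave 0 calls among the 8 members kept and 0 (0%) among 10532 genes by limma, with 0 members and 509 genes at an unadjusted p under 0.05. No member had groups that did not overlap, beside 7.94% of genes. For Ptgs2 the log2 difference was 0.13 (95% interval -0.19 to 0.46), for Pla2g4a 0.02 (-0.08 to 0.12), for Alox5ap 0.06 (-0.06 to 0.17) and for Hpgds 0.01 (-0.13 to 0.15). Ptges2 gave -0.12 (-0.26 to 0.02), and Ptgs1, Ptges and Ptges3 gave -0.01, -0.03 and -0.03. These intervals bound the difference and do not show that both preparations act alike. Within the number that opens the library code, the Ptgs2 difference was 0.66 for number 1 and -0.13 for number 2.

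The authors' deposited table for CON-BDEV gives 3 members with q under 0.05, all higher: Ptgs2 (q = 0.00245), Pla2g4a (0.00623) and Alox5ap (0.0429). The authors' deposited table for SE-BDEV gives the same 3 members, with q-values of 0.00196, 0.00369 and 0.00196. Of the genes tested in the authors' deposited tables, 2.76% and 3.36% were higher at that threshold. Hpgds had q-values of 0.198 and 0.129 in the authors' deposited tables, and Tbxas1 and Alox5 were marked there as not tested.

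Around the members, 8 lists of other genes of the pathway held 92 genes in the files, of which 47 passed the filter. With CON-BDEV 11 of these rose and 3 fell, and with SE-BDEV 14 rose and 4 fell (limma). Over all 10535 genes 3.81% rose and 1.86% fell with CON-BDEV, and 6.76% rose and 5.14% fell with SE-BDEV. Among other enzymes of the lipoxygenase and leukotriene branch, 4 of 8 rose and 0 fell in each comparison, with list medians of 0.38 and 0.30. These were Mgst2 (log2 fold change 0.89 with CON-BDEV and 0.97 with SE-BDEV) and Ltc4s (0.60 and 0.52), which can join glutathione to leukotriene A4, Mgst1 (0.70 and 0.72), a glutathione transferase known mainly for detoxification, and Ephx1 (0.60 and 0.65), a microsomal epoxide hydrolase known mainly for xenobiotics. Mgst2 measured 25.0 ± 1.24 FPKM in Vehicle, 47.7 ± 7.54 in CON-BDEV and 50.1 ± 4.34 in SE-BDEV (SD, n = 3). Lta4h, which makes leukotriene B4, was present at a mean of 38.8 FPKM.

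Genes of prostaglandin and leukotriene breakdown and transport included the largest change among the 47 genes kept of the 8 lists. Ptgr1, a reductase that inactivates prostaglandins and leukotriene B4, measured 30.1 ± 0.866 FPKM in Vehicle, 74.3 ± 13.6 in CON-BDEV and 71.4 ± 6.65 in SE-BDEV (SD, n = 3). Its log2 fold change was 1.26 with CON-BDEV (limma adjusted p = 0.00117) and 1.22 with SE-BDEV (5.75e-06). Abcc1, an exporter of leukotriene C4, rose by 0.54 and 0.57, and Cyp4f18, which oxidises leukotriene B4, rose by 0.57 and 0.77. Abcc4, an exporter of prostaglandin E2, rose by 0.36 with SE-BDEV and had 0.28 with CON-BDEV (adjusted p = 0.0691). Of the 7 genes kept, 3 rose with CON-BDEV and 4 with SE-BDEV, 0 fell, and the list medians were 0.28 and 0.36. Hpgd, which starts the main breakdown of prostaglandins, was listed at 0 in all libraries. Ptgr1, like Mgst1, Mgst2 and Ephx1, is also known from general detoxification.

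Genes that activate arachidonic acid and return it to phospholipids included falls. In this list 3 of 8 kept genes fell and 1 rose with CON-BDEV, and 4 fell and 1 rose with SE-BDEV, beside 1.86% and 5.14% of all genes that fell, with medians of -0.16 and -0.15. The acyl-CoA synthetase Acsl3 fell by 0.28 and 0.30 on the log2 scale, and the lysophospholipid acyltransferases Lpcat1 (-0.32 and -0.22) and Lpcat3 (-0.24 and -0.24) were lower with both. The CON-BDEV falls of Acsl3, Lpcat1 and Lpcat3 and the SE-BDEV falls of Lpcat1 and Lpcat3 were lost with the library-code number as a factor. With the replicate block Acsl3 and Lpcat3 lost their CON-BDEV call and Lpcat1 its SE-BDEV call. Acsl4, a synthetase that favours arachidonic acid, fell by 0.25 with SE-BDEV and had -0.21 with CON-BDEV (limma adjusted p = 0.0595). Lpcat2, an acyltransferase that also makes platelet-activating factor, rose by 0.40 and 0.35.

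In the list of other phospholipases and release of arachidonic acid 10 genes were kept. Of these Pla2g15, a lysosomal phospholipase, rose by 0.31 with CON-BDEV and 0.27 with SE-BDEV. With SE-BDEV Daglb (0.20) and Abhd12 (0.19), which handle diacylglycerol and monoacylglycerol, also rose, and 0 fell; the list medians were 0.12 and 0.05. Pla2g7, which breaks down platelet-activating factor, was under the filter at 0.131, 0.584 and 0.640 FPKM in the 3 groups and is named after its values were seen. The authors' deposited tables give it log2 fold changes of 2.15 (q = 0.00245) with CON-BDEV and 2.28 (q = 0.00643) with SE-BDEV, beside 1.30 and 1.25 there for Ptgr1. The list of other prostanoid synthases kept 4 genes. Of these Akr1b8, an aldo-keto reductase of a family of similar genes, rose by 0.67 in both comparisons, beside list medians of 0.05 and 0.00. Its part in prostanoid synthesis was not tested. Akr1b3 (0.01 and -0.04), Cbr1 and Cbr2 had no call. Of the receptors, 2 for prostanoids passed the filter: Ptgir, the prostacyclin receptor, rose by 0.38 and 0.35, from 47.3 ± 0.805 FPKM in Vehicle to 62.3 ± 7.17 in CON-BDEV and 60.9 ± 5.56 in SE-BDEV (SD, n = 3). The other was Ptger1, a prostaglandin E2 receptor, at 11.7 FPKM with no call. None of 2 kept leukotriene and related lipid receptors was called (Cysltr1, -0.14 and -0.13), nor any of 6 proteins that bind AU-rich stretches such as those of Ptgs2 mRNA (Khsrp, -0.04 and -0.03).

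**Figure D4:**
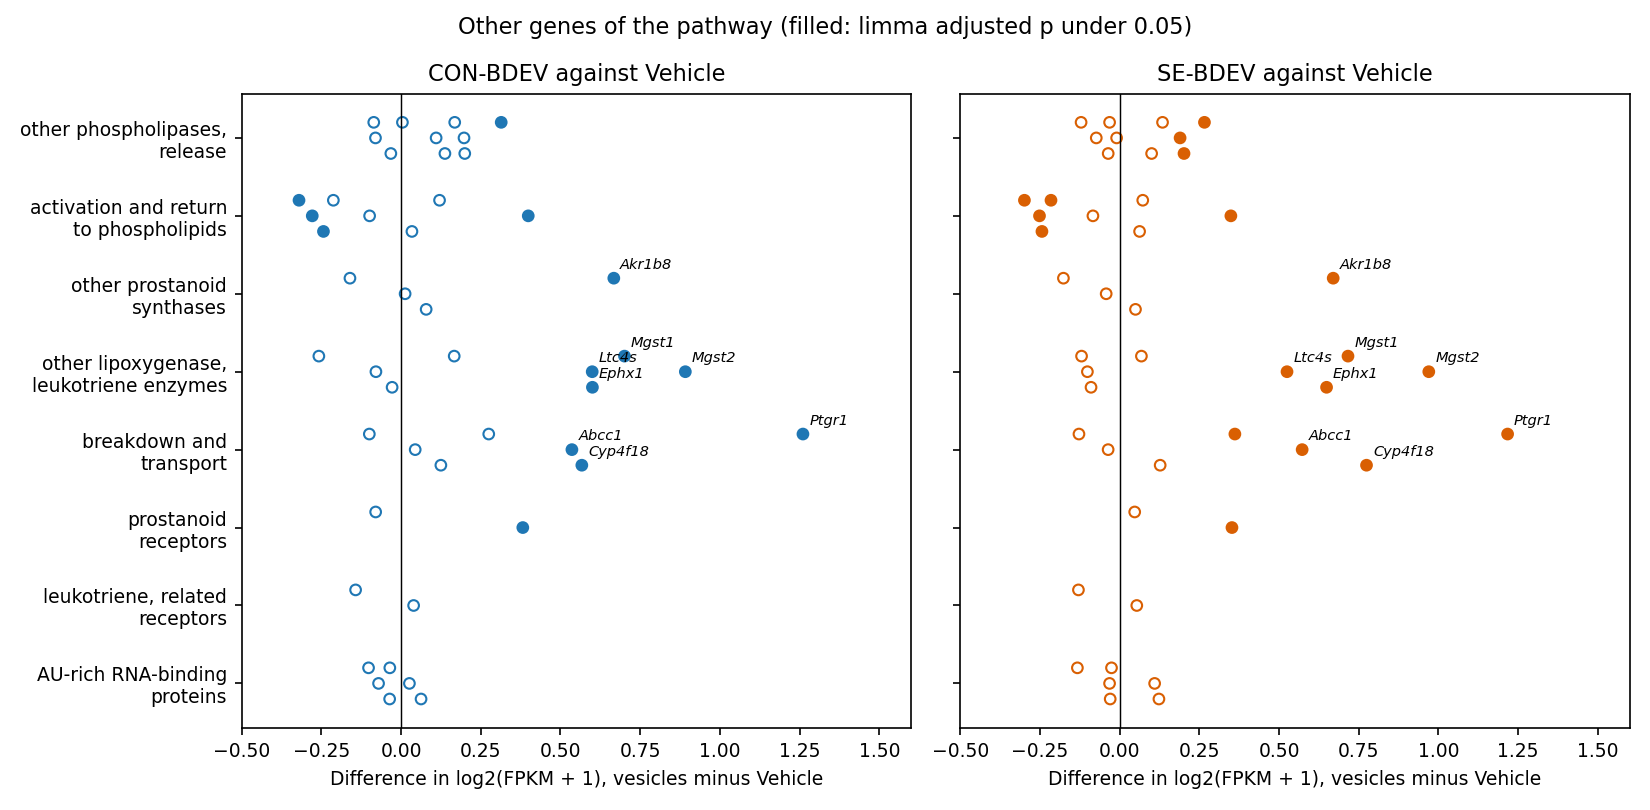
Log2 fold change of each kept gene of the 8 pathway lists against Vehicle, on the log2(FPKM + 1) scale, with 1 row per list, points for genes and filled points for genes past an adjusted p of 0.05 in limma. Ptgr1, at 1.26 and 1.22, lies farthest to the right, and the falls past the threshold belong to the list of arachidonic acid activation and return.

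Many calls in the pathway lists depended on single libraries. Akr1b8, Mgst1, Mgst2, Ptgr1 and Abcc1, 5 of 14 called genes, kept their CON-BDEV call without each of the 6 libraries in turn. The other CON-BDEV calls were each lost without at least 1 Vehicle library, and those of Acsl3, Lpcat1, Lpcat2, Lpcat3, Ltc4s and Ptgir also without CON-BDEV replicate 3. With SE-BDEV 13 of 18 kept their call; Daglb, Abhd12, Lpcat1, Lpcat2 and Lpcat3 each lost it without at least 1 Vehicle library. With the library-code number as a factor 9 of 14 calls held with CON-BDEV (Acsl3, Lpcat1, Lpcat2, Lpcat3 and Ltc4s were lost) and 15 of 18 with SE-BDEV (Abhd12, Lpcat1 and Lpcat3 were lost). The replicate block left 11 of 14 (without Acsl3, Lpcat3 and Ltc4s) and 16 of 18 (without Abhd12 and Lpcat1). With no filter on low values 5 of 14 and 15 of 18 held, and with no mean-variance trend 11 of 14 and 17 of 18. At the q threshold used for the members, the authors' deposited Cuffdiff tables did not call Ltc4s (q = 0.0877 and 0.146) or Lpcat3 (0.471 and 0.410). Nor did they call Acsl3 with CON-BDEV (0.0797), or Lpcat1 (0.189), Daglb (0.151) and Abhd12 (0.205) with SE-BDEV. The other calls passed there, as did Abcc4 with CON-BDEV (0.0334), which limma did not call.

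Between the 2 preparations 0 of the 47 genes were called (limma). Ptgr1 differed by -0.04, Ptgir by -0.03, Anxa1 by -0.10, Acsl5 by -0.06, Akr1b3 by -0.06, and Cotl1, Cysltr1 and Khsrp by -0.01, 0.01 and 0.01 on the log2 scale. The largest differences among the 47, named after their values were seen, were those of Cyp4f18 (0.21), Dpep2 (0.16) and Pla2g12a (-0.14). Pla2g12a and Lta4h (-0.09) had unadjusted p-values of 0.0109 and 0.0253 in limma and groups that did not overlap, with adjusted p = 0.991 for each. Pla2g15 (-0.05) also had groups that did not overlap. Over all 10532 genes 7.94% had groups that did not overlap, and 509 had an unadjusted p under 0.05 in limma.

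At the locus of Ptgs2 and Pla2g4a, Mir7652 and Ptgs2os are listed between the 2 genes and Ptgs2os2 beyond Ptgs2, and were looked at after the results were known. Mir7652 was at 0 in all libraries, and Ptgs2os, listed at chromosome 1, 151922003 to 151947004 (mm9), did not exceed 0.0212 FPKM. Ptgs2os2 measured 2.91, 2.11 and 2.58 FPKM in Vehicle, 2.90, 3.01 and 3.38 FPKM in CON-BDEV, and 3.32, 3.38 and 3.12 FPKM in SE-BDEV. Vehicle replicate 1 overlapped the CON-BDEV group, and the SE-BDEV libraries lay above all Vehicle libraries. The kit keeps strand, but whether counting used it is not given in the sources used here.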

How the data were processed

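The data are 9 polyA-selected mouse RNA-seq libraries, 3 in each of 3 groups, grouped by their titles. Per the labels' protocols, a ReliaPrep kit gave the RNA and a directional NEB Ultra II kit the libraries. TopHat2, Cuffdiff and mm9 are named in the submitters' processing notes, with no versions; the annotation is not given in the sources used here. The authors deposited FPKM per gene and library in 1 table of each vesicle group with Vehicle, and FPKM was used as deposited. The authors' Cuffdiff tables give, per the file headers, log2 fold changes, a test score, p-values and q-values. The Vehicle libraries are in both FPKM tables and differ by constant factors of 1.00042, 1.00012 and 1.00078; for SE-BDEV against CON-BDEV the tables were joined after division by their geometric mean (1.00044).

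Values were tested as log2(FPKM + 1) with limma 3.58.1 in R 4.3.3 (eBayes with a mean-variance trend, two-sided) on every gene whose mean reached 1 FPKM in the fit, leaving out genes that Cuffdiff marked as having too many fragments. The Benjamini-Hochberg adjustment ran over all genes tested, with a threshold of 0.05. An exact permutation test of 3 against 3 cannot go below 0.1. The fits were tested on simulated data. Depth was estimated from FPKM steps of low values, since 1 fragment is worth a fixed FPKM in a gene, and fragments of other genes from RefSeq transcript lengths. Fragments of Tbxas1 and Alox5 were accepted within 10% of a step, a tolerance raised from 5% after their values were seen; the transcript lengths were also chosen then. Intervals on fragments cover counting error only. Coordinates of loci are mm9 with starts counted from 1, and promoters are RefSeq on GRCm38.p6; the builds were not mixed.

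The members and all lists were chosen with earlier results of these data known. All 10 members are named. Of each pathway list, up to 4 called genes with the largest absolute log2 fold change are named, or, where none passed, the kept gene with the highest mean; genes outside the rule are given as background levels or said to have been chosen after their values were seen. Alternatives were the pseudocount, the filter, no trend, quantile scaling, all 9 libraries in the fit, the replicate number as a block, the number of the library code, and leaving out each library.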

Additional observations from a re-analysis of the deposited data

How the results depend on the processing

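With CON-BDEV 597 genes were called (401 higher, 196 lower). The count was 112 with no filter on low values, 364 with the replicate block, 275 with the number of the library code as a term, and 84 to 1067 when 1 library was left out, each of the 6 moving it by over 1.5 times. Quantile scaling gave 301 higher and 249 lower. The 3 members called became 1 with no filter and 0 to 4 when 1 library was left out, with 0 without Vehicle replicate 2 and 1 without Vehicle replicate 1 or 3. With SE-BDEV 1253 genes were called (712 higher, 541 lower), 726 with no filter, 830 with all 9 joined libraries and 501 to 1311 when 1 library was left out (501, 601 and 678 without Vehicle replicates 1, 2 and 3); quantile scaling gave 634 and 592. The 4 members called with SE-BDEV were 3 or 4 under every alternative run. Between SE-BDEV and CON-BDEV 0 genes were called by limma (509 at an unadjusted p under 0.05), 1 with no trend and 0 to 1 when 1 library was left out. With the replicate block 3 members were called with CON-BDEV, 4 with SE-BDEV and 0 between the preparations. The labels do not say whether replicate numbers pair the libraries. Same-numbered libraries had a mean correlation of -0.04 after removal of group means (-0.26 to 0.19), and 3 of 9 were closest to their own number. With so few libraries these values do not settle whether the numbers pair them. No value of a called member or pathway gene changed direction. The cause of these shifts was not tested. Depth limits what can be said of Tbxas1 and Alox5.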
